A study of Gallus gallus with 9 samples.

Results

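The genes described here are the most heavily counted genes of the chick dorsal mesentery whose level stayed within a 2-fold range from stage to stage. Their level was the read count per mega (M) of the reads counted in the 14172 genes described below (CPM). It was scaled with the trimmed mean of M values (TMM) and averaged over the 3 libraries of each stage. A gene was a member when the mean of its 3 stage means was at least 1000 CPM and its largest stage mean was under 2 times its smallest. The rule found 72 members among 24356 genes in the count table, or 0.296% of them, and among the 14172 genes with at least 1 CPM in 3 or more libraries. Both level and stage ratio were read from the stage means, so differences of the members between stages are given as descriptions and not as tests.

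RNA was sequenced after oligo(dT) selection from wild type White Leghorn embryos at embryonic days 8, 12 and 16 (E8, E12 and E16), when looping of the small intestine begins, is in progress and has ended. Each of the 9 libraries was made from mesentery of 3 pooled embryos, with the gut tube and the superior mesenteric artery dissected away, and no treatment or allele distinguished the groups. The 3 libraries of a stage therefore vary as pools, and variation between single embryos is not seen. The study asked which genes of the mesentery are regulated across looping.

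The dorsal mesentery is a thin double sheet of mesothelium around a mesenchymal core with vessels and nerves, and it tethers the intestine to the body wall. In embryonic tissue of this kind, the genes that take most reads of a poly(A) library commonly encode ribosomal proteins, translation factors, cytoskeletal proteins, collagens and mitochondrial proteins. The files do not pair the Ensembl IDs with names, and 0 of the IDs matched the RefSeq gene table used here, so no member is assigned to such a class and no marker of mesothelium, mesenchyme, muscle, vessel or blood was checked. Members are given by their rank in mean CPM, and 4 of them by ID. Ranks order the reads that a gene took, not molecules: gene lengths were not used, and a longer transcript gives more reads. In bulk tissue, fewer cells of a type and less RNA per cell cannot be told apart.

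Between 22.96 M and 30.62 M reads (M, mega) were counted in genes per library. Reads that fell outside annotated features made up 11.03% to 16.6% of all reads in the E12 libraries and 18.3% to 20.4% in the 6 others. The mean TMM factor (± SD over 3 libraries) was 1.10 ± 0.02 for E8, 0.93 ± 0.08 for E12 and 0.98 ± 0.01 for E16, and E12 replicate 2 had the lowest, 0.86. Between libraries of the same stage, the members' counts differed by more than counting error, with a chi-square per degree of freedom of 318 to 2160. At such high counts any difference in preparation gives large values, so they do not tell separate pools from separate preparations.

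The members held between 13.5% and 16.2% of the gene counts of a library. The mean share (± SD over 3 libraries) was 14.0% ± 0.44 for E8, 14.8% ± 0.63 for E12 and 15.3% ± 0.93 for E16. The share lay at 14.2%, 14.3% and 13.5% in E8 replicates 1 to 3, at 14.1%, 15.02% and 15.3% in the E12 libraries, and at 15.5%, 14.3% and 16.2% in the E16 libraries. The E12 range overlapped both others, whereas every E16 library lay above every E8 library. The 95% Wilson interval of each share, which covers counting error only, reached at most 0.015 percentage points to either side. The 35 genes that reached the same mean level with a stage ratio of 2 or more took 4.33% ± 0.20 in the E8 libraries, 9.21% ± 0.98 in the E12 libraries and 9.91% ± 0.33 in the E16 libraries. They were defined by that ratio, so their wider change was set by the choice of genes, whereas its direction was not.

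Reads were concentrated on the top of the list. The 5 members with the highest level held 25.8% of the members' counts over all libraries. Mean levels ran from 1029.9 to 11071 CPM, with a median of 1540.7 CPM. Of the 72 members, 34 lay between 1000 and 1500 CPM, 19 between 1500 and 2000, 13 between 2000 and 3000, 2 between 3000 and 5000, and 4 above 5000 CPM. The lowest count of any member in any library was 12122 reads, at which counting error alone gives a coefficient of variation of 0.908%.

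Stage ratios were spread over the whole permitted range and were not gathered near 1. They ran from 1.12 to 1.99 with a median of 1.61. The ratio was under 1.25 for 7 members, from 1.25 up to 1.5 for 15, from 1.5 to 1.75 for 25 and from 1.75 to 2 for 25. A ratio under 2 was found for 67.3% of the 107 genes that reached the level threshold and for 60.1% of all 14172 genes. The thresholds cut through a continuous range. The 3 members just inside the level threshold had means of 1029.9, 1032.3 and 1039.7 CPM. Among genes with a ratio under 2, the 3 just outside it had 976.8, 964.4 and 957.0 CPM. At the ratio threshold, the 3 members just inside had ratios of 1.99, 1.97 and 1.96. Among genes with a mean of at least 1000 CPM, the 3 just outside it had 2.01, 2.05 and 2.06.

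**Figure D1:**
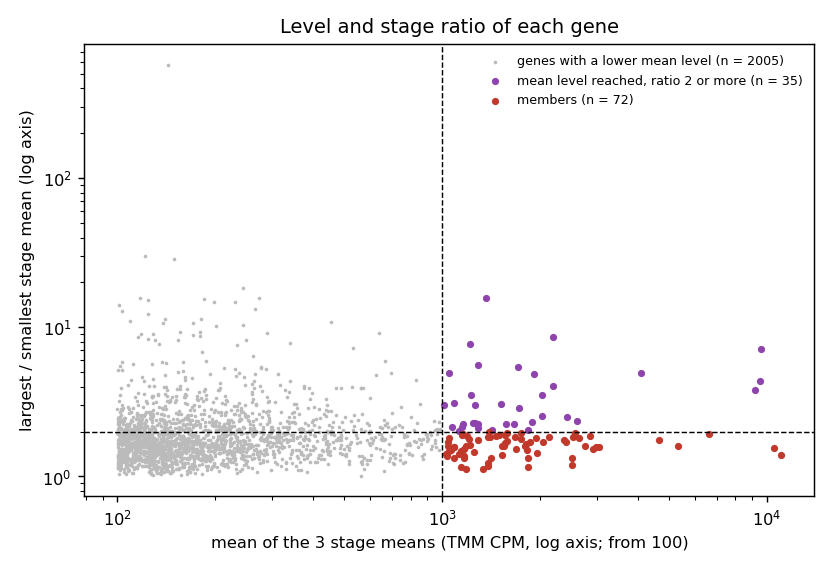
Each point is a gene with a mean of the 3 stage means of at least 100 CPM (log axis), plotted against the ratio of its largest to its smallest stage mean (log axis), with dashed lines at the thresholds of 1000 CPM and 2. The 72 members fill the lower right field, and the 35 genes above them reached the same level with a wider ratio.

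With TMM scaling, E8 was the stage with the lowest mean for 41 of the 72 members. The 35 genes of the same level with a wider ratio were also mostly higher at E12 and E16 than at E8, as given below. The lowest of the 3 stage means was that of E8 for 41 members, of E12 for 14 and of E16 for 17. The highest was that of E12 for 33 members, of E16 for 31 and of E8 for 8. Among all 14172 genes, 34.4% were highest at E8, 33.3% at E12 and 32.2% at E16, and 30.2% were lowest at E8, 33.7% at E12 and 36.1% at E16. These counts depended on the scaling and on single libraries. With total counts only, 20 members were highest at E8, 24 at E12 and 28 at E16, and 32 were lowest at E8, 20 at E12 and 20 at E16. Without E12 replicate 1, the members highest at E8, E12 and E16 numbered 6, 42 and 24. They numbered 7, 39 and 26 without E16 replicate 3, and 10, 27 and 35 without E12 replicate 2. Whichever library was left out, all 3 counts stayed within 1.5 times those with all libraries.

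The largest group by order of stages was lowest at E8 and highest at E12. It held 22 members, including the most counted one, and its median levels were 0.72 times the member's own mean at E8, 1.25 times at E12 and 1.00 times at E16. A further 19 members were lowest at E8 and highest at E16, with medians of 0.69, 1.09 and 1.20 times the member's mean. Another 12 members had their lowest mean at E12 and their highest at E16, with medians of 0.98, 0.83 and 1.16. All these groups order stage means only, and the libraries of the stages can overlap. Even a member's highest and lowest stages overlapped in some cases, as in the members ranked 15 and 16. Of the others, 11 were highest at E12 and lowest at E16, 6 were highest at E8 and lowest at E16, and 2 were highest at E8 and lowest at E12.

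**Figure D2:**
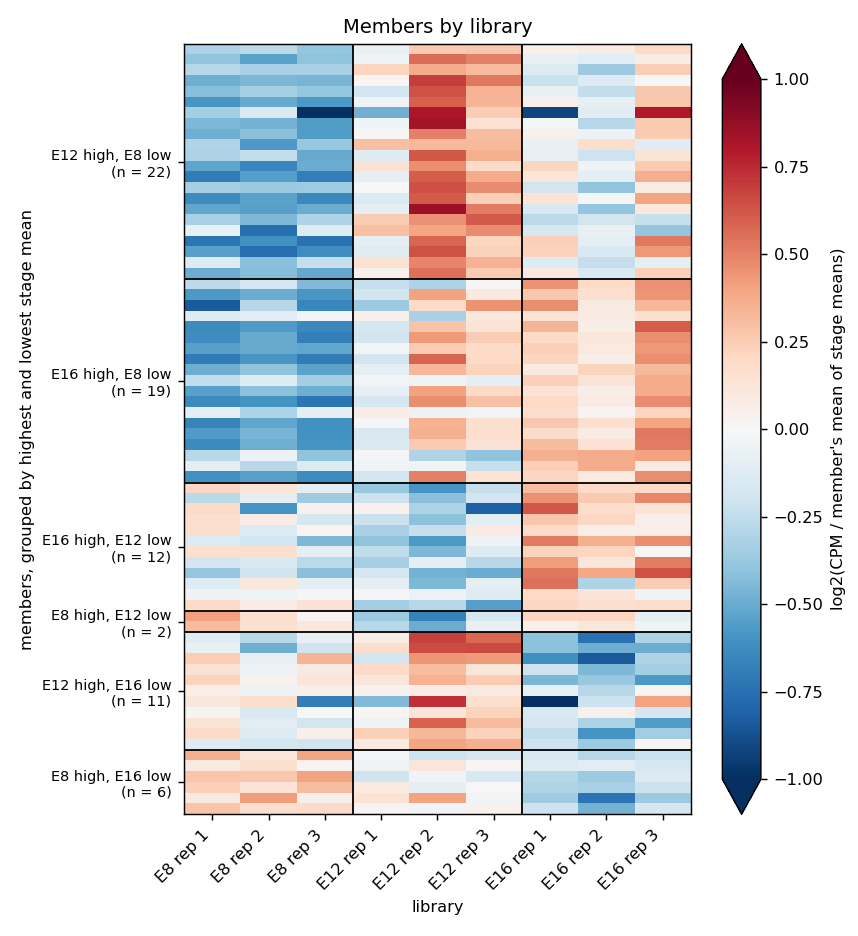
Each row is 1 of the 72 members and each column a library, and the colour gives log2 of the CPM over the member's own mean of the 3 stage means, cut at -1 and 1. Rows are grouped by the stages with the highest and lowest mean. In the top group of 22 members, E12 replicate 1 is the lowest E12 library in every row, though by little in some.

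The log2 difference of the members had a median of 0.54 from E8 to E12, -0.09 from E12 to E16 and 0.39 from E8 to E16. Over all 14172 genes the medians were -0.01, -0.01 and -0.06. Over the 35 genes of the same level with a wider ratio they were 1.04, 0.04 and 1.18. Of those 35 genes, 32 were higher at E12 than at E8, 18 at E16 than at E12 and 28 at E16 than at E8. A higher level after E8 was thus not particular to the members. The standard error had a median of 0.14 over the members in each comparison. Members with the higher value at the later stage numbered 52 of 72 from E8 to E12, 33 of 72 from E12 to E16 and 53 of 72 from E8 to E16. With total counts only, these numbers were 40, 36 and 44, and the median of all genes was then -0.26, 0.07 and -0.24, so directions are relative to the typical gene.

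In the edgeR quasi-likelihood fit to all genes, 61 members had an adjusted p under 0.05 among the 3 stages, where the share of all tested genes was 77.6%. From E8 to E12 it was 44 members, against 55.3% of all genes. Of these, 37 were higher at E12 and 7 lower, where 27.1% and 28.2% of all genes passed in these directions. By total counts, 46 members passed, against 54.0% of all genes, and 34 of the 46 were higher. From E12 to E16, 32 members passed, against 56.5% of all genes, with 14 higher (28.3% of all genes) and 18 lower (28.3%). Without E16 replicate 1 the number was 20, and the share of all genes was then 46.6%. From E8 to E16 it was 41 members, against 51.2% of all genes, with 32 higher (23.6%) and 9 lower (27.7%). By total counts, 42 members passed, against 54.7% of all genes, and 28 of the 42 were higher. Since stage means chose the members, nothing is read from these counts.

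The values of the 2 stages did not overlap for 48 members between E8 and E12, against 62.5% of all genes. Between E12 and E16 this held for 33 members, against 60.5%, and between E8 and E16 for 51 members, against 65.3%. The shares of the members were 66.7%, 45.8% and 70.8%. A ratio under 2 does not exclude stages without overlap, and nothing about the members is read from these counts.

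The most counted member was ENSGALG00000015917. Its level was 8959.7, 9253.6 and 8458 CPM in E8 replicates 1 to 3, then 10559, 13289 and 13315 CPM at E12, and 11459, 11625 and 12720 CPM at E16. All 6 later libraries lay above all E8 libraries, while E12 and E16 overlapped. Means with their SD over 3 libraries were 8890.5 ± 402 CPM for E8, 12388 ± 1584 for E12 and 11935 ± 685 for E16. The log2 difference was 0.48 (SE 0.14) from E8 to E12 and 0.42 (SE 0.14) from E8 to E16. Scaling by total counts made them 0.22 and 0.25. In reads, this gene took 235579 to 368100 counts per library.

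The member ranked 2 dipped at E12. Its level was 12162, 11565 and 9817.6 CPM at E8, 8061.9, 6971.2 and 8953.5 CPM at E12, and 13008, 11989.9 and 12056 CPM at E16. Every E12 library lay below every library of the other stages, and E8 and E16 overlapped. The log2 difference was -0.48 (SE 0.14) from E8 to E12 and 0.63 (SE 0.14) from E12 to E16. The E12 mean of 7995.5 ± 993 CPM thus stood apart from the means of 11182 ± 1218 for E8 and 12351 ± 570 for E16 (SD over 3 libraries).

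The member ranked 3 had the opposite shape and lay close to the ratio threshold, at 1.92. Its level was 6072.7, 5471.5 and 6257.9 CPM at E8, 6957.1, 10627 and 9865.5 CPM at E12, and 4979.98, 3938.2 and 5351.4 CPM at E16. The stages did not overlap, with E16 lowest and E12 highest. E12 replicate 1 was the E12 library closest to the E8 values. In the member ranked 5, E12 was also highest, at 4522.4, 6863.2 and 6574.6 CPM, against 3539.9, 3206.2 and 3508.5 CPM at E8 and 4410.4, 4321.6 and 4890.6 CPM at E16. There, E12 replicate 1 lay within the range of the E16 libraries.

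ENSGALG00000035334, ranked 4, differed at E16. It stood at 4401.3, 5002.3 and 4143.9 CPM at E8, at 4581.6, 3977.5 and 4657.7 CPM at E12, and at 7280.4, 6351.7 and 7405.3 CPM at E16. The E8 and E12 libraries overlapped, and all E16 libraries lay above them. The log2 difference was -0.04 (SE 0.13) from E8 to E12 and 0.67 (SE 0.13) from E12 to E16. From E8 to E16 it was 0.63 (SE 0.13). By total counts, the difference was -0.28 from E8 to E12 and 0.46 from E8 to E16.

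Of the members lower at E16 than at E8 with an adjusted p under 0.05, the most counted were ranked 17 and 20. ENSGALG00000037953, ranked 17, stood at 2805.3, 2248.3 and 2988.7 CPM at E8, 2079.9, 3214.4 and 3180.9 CPM at E12, and 1551.2, 1325.2 and 1914.9 CPM at E16. The E8 and E12 libraries overlapped and every E16 library lay below them. Its log2 difference was 0.08 (SE 0.19) from E8 to E12 and -0.82 (SE 0.19) from E12 to E16. From E8 to E16 it was -0.75 (SE 0.19). By total counts, the difference was -0.19 from E8 to E12 and -0.92 from E8 to E16.

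ENSGALG00000005587, ranked 20, was lower from E12 on. It stood at 2518.1, 2122.9 and 2567.7 CPM at E8, 1926.3, 1698.5 and 1745.5 CPM at E12, and 1761.8, 1602.7 and 1675 CPM at E16. The E8 libraries lay above all others, and E12 and E16 overlapped. Its log2 difference was -0.42 (SE 0.12) from E8 to E12 and -0.09 (SE 0.12) from E12 to E16. From E8 to E16 it was -0.52 (SE 0.12). By total counts, the difference was -0.66 from E8 to E12 and -0.69 from E8 to E16.

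**Figure D3:**
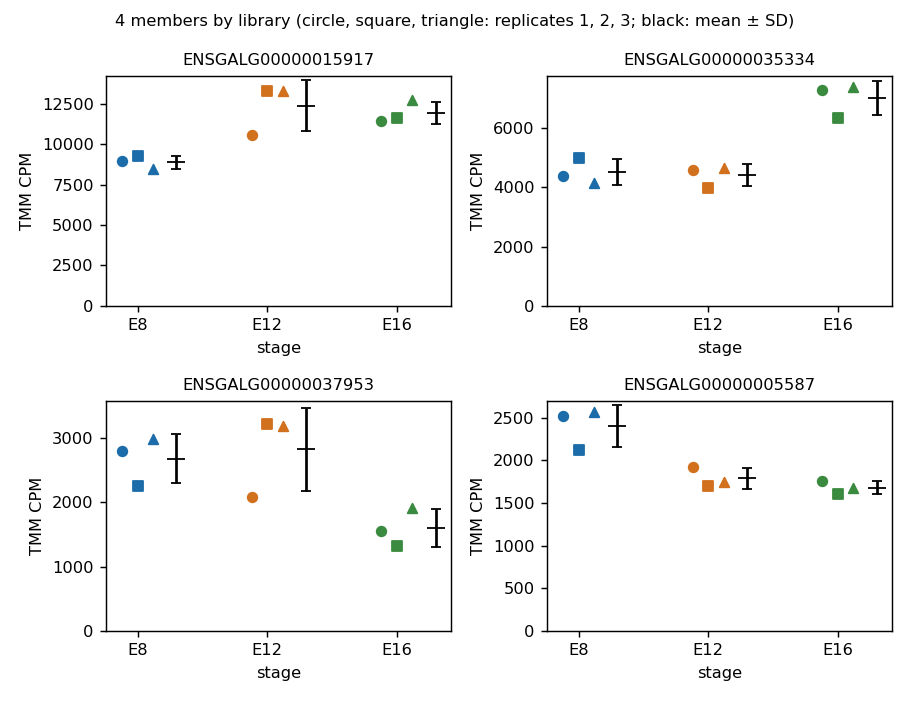
The TMM CPM of 4 members (linear axis from 0) is plotted for each library by stage, with black marks for the stage mean and its SD over 3 libraries. In ENSGALG00000015917 the 3 E8 libraries lie below all others, in ENSGALG00000035334 the 3 E16 libraries lie above all others, in ENSGALG00000037953 the 3 E16 libraries lie below all others, and in ENSGALG00000005587 the 3 E8 libraries lie above all others.

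The members with the smallest ratios of stage means, the measure that the rule used, were ranked 47, 54 and 24 by level. The member ranked 47 had the smallest ratio, 1.12, with 1287.6, 1290.9 and 1317.5 CPM at E8, 1320.7, 1276.3 and 1221.6 CPM at E12, and 1531.8, 1453.7 and 1295.1 CPM at E16. The member ranked 54 had a ratio of 1.13 and means with SD over 3 libraries of 1204.8 ± 55.7 CPM for E8, 1238.7 ± 21.1 for E12 and 1099 ± 113 for E16. For the member ranked 24, with a ratio of 1.16, the means were 1727.5 ± 67.7, 1777.7 ± 274 and 2000.8 ± 54.6 CPM. The fold between the highest and the lowest of the 9 libraries was under 1.5 for 7 members and 3 or more for 2 members, with extremes of 1.25 in the member ranked 45 and 3.85 in that ranked 16.

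How far the pools of the same stage differed was not itself a criterion of the rule, but the stage means that the rule used depended on single pools. Without E12 replicate 1, 16 members were lost and 1 was gained, so the spread of the members is not free of their selection. The coefficient of variation over the 3 libraries of a stage had a median over the members of 5.87% at E8, 14.8% at E12 and 11.2% at E16. E12 was the stage with the widest spread for 49 members and for 54.6% of all genes. Over all 14172 genes the median coefficients were 9.69%, 16.9% and 12.1%, and over the 35 genes of the same level with a wider ratio they were 8.42%, 19.0% and 12.7%. All genes include those with few reads, where counting error is larger, so only the 35 genes are at a like level. At E8, 28 members varied by less than 5%, compared with 7 at E12 and 9 at E16. In each stage, leaving out 1 library narrowed this spread by over 1.5 times, and leaving out another widened it. These medians rest only on the libraries left in the stage. Dropping the middle of 3 values always raises a gene's SD, and dropping the value farthest from the middle one always lowers it. Neither the widening nor the narrowing by itself therefore says anything about a library. The E8 median was 3.06% without E8 replicate 2 and 6.65% without E8 replicate 1. The E12 median was 9.08% without E12 replicate 1 and 16.4% without E12 replicate 3. The E16 median was 7.16% without E16 replicate 3 and 14.2% without E16 replicate 1.

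**Figure D4:**
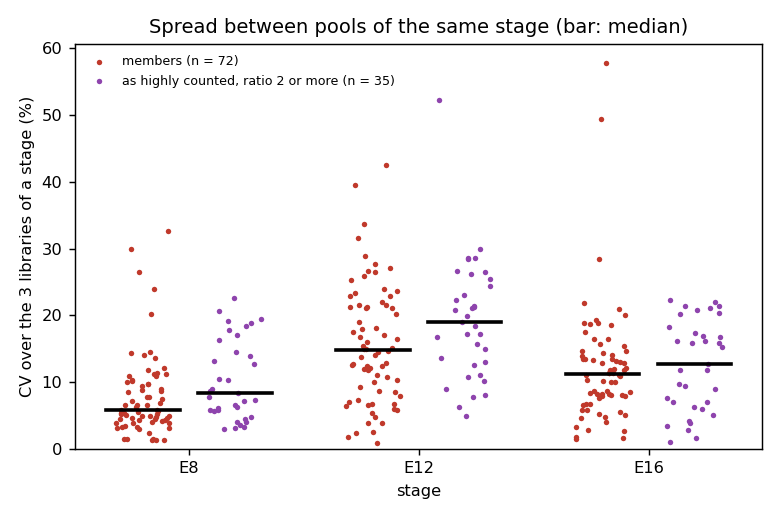
Each point is the coefficient of variation (percent) of 1 gene over the 3 libraries of a stage, for the 72 members and for the 35 genes of the same level with a ratio of 2 or more, and black bars are medians. The members' medians are 5.87% at E8, 14.8% at E12 and 11.2% at E16, and at E16 the points of 2 members lie above all others of that stage.

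Within a stage, many members deviated in the same libraries. The members were chosen by means over these libraries, so the counts that follow are descriptions. E12 replicate 1 had the lowest value of its stage for 48 of the 72 members, and for 40.5% of all genes. E12 replicate 2 had the highest for 44 members, and for 35.4% of all genes. At E16, replicate 2 was lowest for 50 members and replicate 3 highest for 47, against 33.2% and 31.4% of all genes. Over all genes these libraries were also extreme the other way. E12 replicate 1 was highest for 42.1% and E12 replicate 2 lowest for 28.1%. E16 replicate 2 was highest for 41.6% and E16 replicate 3 lowest for 41.9%. With total counts only, E12 replicate 1 was lowest for 36 members and highest for 23, in place of 9 with TMM. E12 replicate 2 was then highest for 32 and lowest for 26. E16 replicate 2 was lowest for 48 and E16 replicate 3 highest for 43.

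The ordering of the E12 libraries differed between the members highest and those lowest at E12. The same libraries set those stage means, and all genes were not split in this way. Nothing particular to the members is therefore read from it. Among the 33 members highest at E12, E12 replicate 1 was the lowest E12 library in 31 and never the highest. Among the 14 members lowest at E12, it was the lowest in 2, and E12 replicate 2 was the lowest in 8. Reads outside annotated features made up 16.6% in E12 replicate 1, 11.03% in replicate 2 and 13.5% in replicate 3. The highest E12 library, which for the 14 members lowest at E12 is the one nearest the other stages, was replicate 3 in 9 of them, replicate 1 in 3 and replicate 2 in 2. The part of this library property in the members' levels was not tested.

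Some sets of members moved together from pool to pool. The 6 most alike pairs of members joined 4 genes, ranked 11, 34, 42 and 68, whose deviations from the stage means (log2 CPM) had correlations of 0.9975 to 0.9993 over the 9 libraries, and of 0.9935 to 0.9998 over the 6 libraries of E8 and E16. The pairs were chosen by their correlation over all 9 libraries, which include these 6, so the second range is no separate check. Both ranges are descriptions over libraries that share their scaling factors, and the median over all 2556 pairs of members was 0.23. The member ranked 11 stood at 1770.4, 1867.4 and 1761.5 CPM at E8, 2327.5, 3482.3 and 2815.6 CPM at E12, and 3171.4, 2954 and 3591 CPM at E16. That ranked 68 stood at 690.1, 722.8 and 677.7 CPM, 925.1, 1493.6 and 1155 CPM, and 1217.8, 1121.4 and 1450.5 CPM. In both, the libraries of each stage fell in the same order, with E12 replicate 2 and E16 replicate 3 the highest of their stage.

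When members were grouped so that every pair within a group had a correlation of at least 0.8, 4 groups of 4 or more members formed, with 31 members in all. Pairs and groups were sought among the members only, so moving together is not read as particular to them. The largest held 17 members, all lowest at E8, of which 8 were highest at E12 and 9 at E16. Their median deviation was -0.34 in E12 replicate 1 and 0.30 in E12 replicate 2 on the log2 scale. A group of 4 members, ranked 14, 23, 30 and 57, was lowest at E12 in every case and deviated otherwise, by 0.03 in E12 replicate 1 and -0.19 in E12 replicate 2.

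Finally, the 2 members with the widest spread deviated together. The member ranked 16 stood at 1899.7, 2178.7 and 1095 CPM at E8, 1728.4, 4216.9 and 2856.4 CPM at E12, and 1277.9, 2233.3 and 4189 CPM at E16. The member ranked 56 stood at 1268.6, 1329.6 and 726.7 CPM, 861.9, 1946.2 and 1317.5 CPM, and 529, 1009.7 and 1545 CPM. All 3 stages overlapped in both, and E8 replicate 3, E12 replicate 1 and E16 replicate 1 were the lowest libraries of their stages. As in the largest group above, E12 replicate 1 was the lowest and E12 replicate 2 the highest E12 library, and E16 replicate 3 was the highest E16 library. Their median coefficients of variation were 42.5% and 39.6%, and the correlation of their deviations was 0.992 over 9 libraries and 0.99 over the 6 libraries of E8 and E16. Their ratios under 2 thus came from stage means that each averaged widely differing pools.

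**Figure D5:**
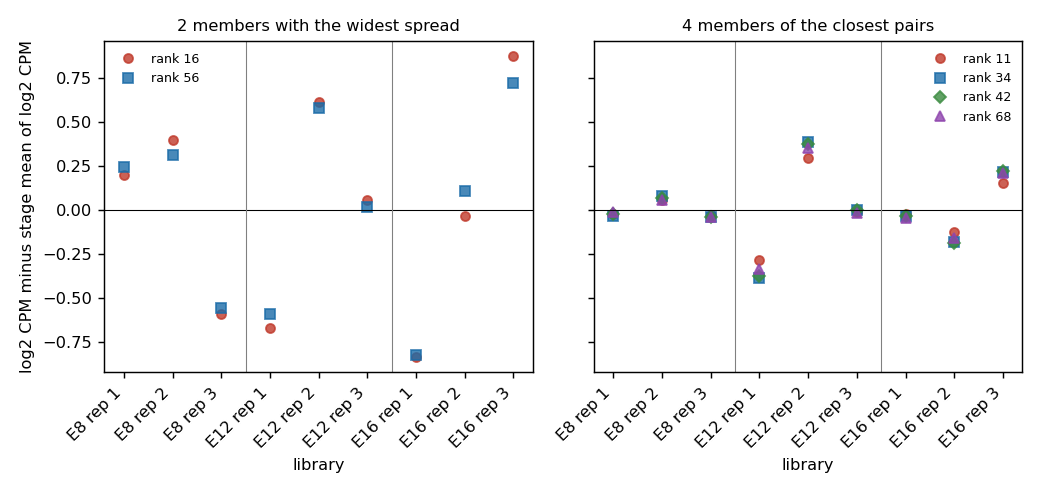
The deviation of each library from its stage mean (log2 CPM) is plotted for the members ranked 16 and 56 on the left and for those ranked 11, 34, 42 and 68 on the right, with grey lines between stages. On the left E16 replicates 1 and 3 lie at the extremes, and on the right E12 replicates 1 and 2 do.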

How the data were processed

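The count table deposited by the authors holds unnormalized reads per Ensembl gene ID in 9 libraries and 5 rows of reads assigned to no gene (31.6% to 36.6% of all reads), which were kept out of library sizes and tests. The submitters' processing notes name HISAT2 2.2.1, HTSeq 0.13.5 and the build GRCg6a. The strand setting is not given in the sources used here, so counts of overlapping and antisense genes are uncertain. Counts of near-identical genes are uncertain as well. Genes with at least 1 CPM in 3 or more libraries were kept (14172) and scaled with TMM factors. The 3 stage means were then modelled over the 9 libraries together by the robust quasi-likelihood method of edgeR 4.0.16 in R 4.3.3, with Benjamini-Hochberg adjustment over all genes. The fit was tested on simulated data. Standard errors are the absolute log2 difference over the square root of F.

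The members and lists were chosen with earlier results of these data known. The gene lists and cell type markers fixed by symbol were not used, because no ID matched a symbol. For the same reason only 4 members are named by ID, the 2 most counted in each direction from E8 to E16 among those with an adjusted p under 0.05. Other members are given by rank: the most counted, those with the smallest ratios and those with the widest spread. Alternatives were DESeq2 1.42.0, limma-voom (limma 3.58.1), other scalings, filters and thresholds, each library left out, and the replicate number as a block. Stage orders under other scalings and without each library, the order of libraries under other scalings and the groups of members moving together were added after the data were seen.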

Additional observations from a re-analysis of the deposited data

How the results depend on the processing

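The number of members followed its thresholds: 171 with a level of at least 500 CPM, 19 with at least 2000 CPM and 22 with a ratio under 1.5. Other scalings, filters and stage medians gave 66 to 81 members. Without each library in turn it was 57 to 77, lowest without E12 replicate 1, which lost 16 members and gained 1. As a share of all reads, the members took 8.93% at E8, 10.01% at E12 and 9.85% at E16. Without the most counted member they took 13.0%, 13.6% and 14.2% of gene counts.

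Members called from E12 to E16 numbered 20 to 34 without each library, lowest without E16 replicate 1. The share of all genes called was 46.6% without that library and 56.5% with all libraries. The E12 spread ranged from 9.08% to 16.4%, lowest without E12 replicate 1, where it rested only on the E12 libraries left. With total counts only, 20 members were highest at E8 in place of 8. For these 3 results the cause was not tested. DESeq2, limma-voom and the other filters moved no count of members called by over 1.5 times.

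With the replicate number as a block, 60 members were called among the 3 stages, against 76.3% of all genes. From E8 to E12 it was 43 members (53.9% of all genes), from E12 to E16 27 (55.3%) and from E8 to E16 40 (50.5%). Deviations of same-numbered libraries of different stages had correlations of -0.161 to 0.193, and those of differently numbered ones -0.376 to 0.286. The best match had the same number in 6 of 18 cases. A pairing by number was thus not seen, but 3 libraries per stage cannot exclude it. No log2 difference of the 4 named members that was called changed sign under these scalings or without any 1 library. At the members' depths counting error is small beside the spread between pools, and 3 pools per stage limit every comparison.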
